A study of Homo sapiens with 6 samples.

Results

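The libraries dated 18 September were compared with those dated 5 September, 2 libraries against 2, out of the 6 libraries of the series. HEK293 cells, an established human embryonic kidney line, were co-transfected with Flag-Ago2 and either mir-219 mimics or negative control mimics. Ago2 is the small-RNA-binding protein at the core of the RNA-induced silencing complex. The complexes were precipitated through the Flag tag, and the RNA recovered with them was sequenced. Each date has 1 library with mir-219 mimics and 1 with negative control mimics, so that all 4 libraries carry Flag-Ago2 and the dates differ in no stated treatment. The members were the libraries whose labels give these 2 dates, and the 2 libraries of 22 August were left out of the comparison. Below, the mir-219 pair is the 18 September library with mir-219 mimics against the 5 September library with the same mimics, and the control pair is the same for negative control mimics. The labels do not say what was done on each date or whether the dates were separate cultures, so the p-values measure no more than how far these samples differ, and that spread may be technical.

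HEK293 cells grow as adherent epithelium-like cells whose gene expression responds to cell shape, crowding and serum. The Hippo pathway is a kinase cascade in which STK3 and STK4 activate LATS1 and LATS2, and these phosphorylate the coactivators YAP1 and WWTR1 (TAZ) and keep them out of the nucleus. In the nucleus YAP1 and WWTR1 bind the DNA-binding TEAD proteins and switch on genes such as CTGF, CYR61 and ANKRD1. Soft or crowded surroundings are known to turn this output down, while spreading, actin tension and serum are known to turn it up. The level of a transcript in these libraries mixes its amount in the cells with how much of it came down with Ago2, and fewer cells and less RNA per cell cannot be told apart.

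The libraries held 27777029 counts (mir-219) and 34408699 counts (control) on 5 September, and 20379336 and 20233819 counts on 18 September, so depth separated the dates. The transfected gene, AGO2, made up 16.7 and 18.0% of each total on 5 September, against 12.6 and 10.6% on 18 September. It was lower on 18 September by the test (log2 difference -0.66, SE 0.21, adjusted p = 0.044). Counts of mitochondrially encoded genes made up 6.25 and 5.66% on 5 September and 7.27 and 6.48% on 18 September. All 10 HEK293 marker genes were detected at a level that could be tested, among them the neurofilament NEFL. Their summed level was 1808 and 1717 CPM (counts scaled to a common library total of 1e+06) on 5 September and 1938 and 1946 CPM on 18 September. VIM and KRT8 made up most of that sum. By the test 3 of the 10 were higher on 18 September (30%, against 8.43% of all genes). Another 2 were lower (20%, against 10.9%), LHX1 (-0.63) and CDH2 (-0.37). Depth, AGO2 and date move together here, and the part of depth and of AGO2 in the differences below cannot be told apart from the date.

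Of 48162 genes in the table, 16130 passed the filter on low counts and were tested with edgeR's quasi-likelihood F test, with date and mimic as terms and Benjamini-Hochberg adjustment at a threshold of 0.05. On 18 September 1360 genes were higher (8.43% of those tested) and 1755 were lower (10.9%). Most of the differences were small: 72 of the higher and 81 of the lower genes differed by at least 2-fold, and the median standard error was 0.122 on the log2 scale. Both 18 September libraries lay below both 5 September libraries for 4693 genes (29.1%) and above both for 4443 genes (27.5%). The 2 pairs share no library, and across genes, which are not independent replicates, their log2 differences had a Pearson correlation of 0.448 and a Spearman correlation of 0.517. The sign was the same in both pairs for 72.2% of genes. The standard deviation of the log2 differences was 0.421 in the mir-219 pair and 0.483 in the control pair, against 0.373 and 0.351 between the mimics within 5 and 18 September.

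These calls rest on an estimate of spread with 1 residual degree of freedom per gene (12.1 after sharing across genes), from 4 libraries whose common dispersion was 0.00633. When the 22 August pair was added to the same fit, the dispersion rose to 0.0182 and 2 genes passed, CTGF and ANKRD1, both lower (0.012% of 16689 tested; none was higher, and 2803 genes had an unadjusted p under 0.05). The log2 differences themselves stayed as they were, with a Pearson correlation of 0.999 between the fits. All 3115 genes called in the 4 libraries kept their sign with 6. The gene counts below are therefore those of the 4 libraries, and apart from CTGF and ANKRD1 none of them passes against the spread seen over 3 dates, unless a trend with gene length is also removed, when CYR61 is the third to pass.

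**Figure D1:**
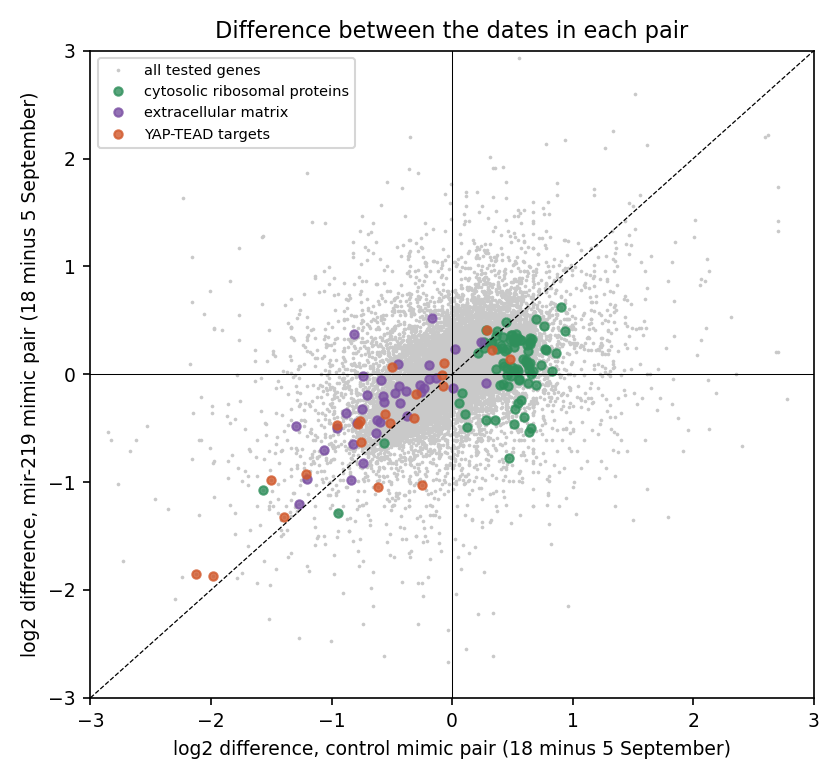
Log2 difference between 18 and 5 September in the control pair (horizontal) and in the mir-219 pair (vertical), 1 point per tested gene, with 3 gene lists in colour and a dashed line of equal change. CTGF and ANKRD1 are the 2 orange points near -2 on both axes, ribosomal protein genes lie mostly to the right of 0, and 18 genes beyond 3 on either axis are not drawn.

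The genes with the lowest p were YAP-TEAD targets, and they fell. CTGF (connective tissue growth factor, now CCN2), a secreted matrix-associated protein and a standard readout of YAP activity, was at 124 and 194 CPM on 5 September (mir-219, then control) and at 34.2 and 44.5 CPM on 18 September. ANKRD1, which encodes an ankyrin repeat protein of the muscle sarcomere and nucleus, was at 97.2 and 90.8 CPM on 5 September, against 26.6 and 22.8 CPM on 18 September. CYR61 (CCN1), a secreted relative of CTGF, was at 163 and 190 CPM on 5 September, against 64.8 and 72.4 CPM on 18 September. For all 3 genes both 18 September libraries were far below both 5 September libraries, whichever mimic had been given. The log2 difference was -2.00 for CTGF (SE 0.10, adjusted p = 1.0e-06; -1.86 in the mir-219 pair and -2.13 in the control pair). It was -1.93 for ANKRD1 (SE 0.10, adjusted p = 1.0e-06; -1.87 and -1.99) and -1.36 for CYR61 (SE 0.09, adjusted p = 1.585e-05; -1.33 and -1.39).

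The libraries of 22 August stood with those of 5 September for these genes. In a normalization over all 6 libraries CTGF was at 136 and 232 CPM on 22 August, ANKRD1 at 73.5 and 79.8 CPM and CYR61 at 131 and 213 CPM. With 6 libraries in the fit CTGF and ANKRD1 had an adjusted p of 0.0186 each and CYR61 of 0.230. With the length trend removed as well CYR61 passed (log2 -1.46, adjusted p = 0.0331). In fits over 5 libraries, CTGF and ANKRD1 passed without either 5 September library and without the mir-219 library of 18 September. Without the control library of 18 September neither passed (log2 -1.81 and -1.80, adjusted p = 0.128 for both). In hg19 coordinates CTGF (ENSG00000118523) lies at chr6:132269316-132272513, ANKRD1 (ENSG00000148677) at chr10:92671853-92681033 and CYR61 (ENSG00000142871) at chr1:86046444-86049645. The table places 1 other gene over CTGF and none over ANKRD1 or CYR61.

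TEAD proteins bind the core letters GGAATG. The promoters of CTGF and ANKRD1, the genes with the lowest p, and of THBS1, a matrix gene with a match, are shown from RefSeq (GRCh38.p14, 250 bases before to 50 after the start of the gene), with each GGAATG or its reverse complement in capitals. CTGF (chr6:131951323-131951622, minus strand) has 3 matches, starting 169, 104 and 95 bases before the start. ANKRD1 (chr10:90921038-90921337, minus strand) has 2, at 220 and 128 bases before it, and THBS1 (chr15:39580829-39581128, plus strand) has 1, at 46 bases before it.
CTGF: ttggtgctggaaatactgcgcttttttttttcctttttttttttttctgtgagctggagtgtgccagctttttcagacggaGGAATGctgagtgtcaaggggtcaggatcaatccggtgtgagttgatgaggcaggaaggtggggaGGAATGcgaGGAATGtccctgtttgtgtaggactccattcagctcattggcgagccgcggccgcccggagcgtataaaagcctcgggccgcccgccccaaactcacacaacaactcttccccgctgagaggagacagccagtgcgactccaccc
ANKRD1: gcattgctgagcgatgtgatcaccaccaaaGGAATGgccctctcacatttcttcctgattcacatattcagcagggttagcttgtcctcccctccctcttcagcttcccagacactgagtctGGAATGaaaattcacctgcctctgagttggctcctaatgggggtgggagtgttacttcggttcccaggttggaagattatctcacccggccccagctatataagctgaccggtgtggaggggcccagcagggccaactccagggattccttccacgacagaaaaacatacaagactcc
THBS1: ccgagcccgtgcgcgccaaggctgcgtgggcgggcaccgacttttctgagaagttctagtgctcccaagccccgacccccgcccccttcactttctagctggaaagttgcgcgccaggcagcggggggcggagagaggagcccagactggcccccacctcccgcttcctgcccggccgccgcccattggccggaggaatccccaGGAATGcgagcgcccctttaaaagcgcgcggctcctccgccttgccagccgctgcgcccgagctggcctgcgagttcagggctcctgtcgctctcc
Of the 13 YAP-TEAD targets that fell, 9 matched a RefSeq promoter and 7 of those held GGAATG on either strand (AMOTL2, LATS2, CTGF, ANKRD1, PTPN14, NUAK2 and TGFB2), while MYOF and RBMS3 did not. The share was 14% of all 35116 promoters and 14.9% of the 11404 tested genes with a promoter. Among the 1401 lower genes with a promoter it was 16.7%, and among the 1060 higher ones 13.7%. TEAD binding is known at several of these genes, so the share describes the list and not the dates.

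Of the 22 YAP-TEAD targets on the list, all of which could be tested, 13 fell (59.1%, against 10.9% of all genes). Of the others 1 rose (4.55%, against 8.43%) and 8 did not pass. The median log2 difference was -0.54 (-0.44 in the mir-219 pair, -0.54 in the control pair), against 0.0037 over all tested genes. For 15 of the 22 both 18 September libraries lay below both of 5 September, as for 29.1% of all genes tested. AMOTL2, an angiomotin-family scaffold that binds YAP, went from 72.4 and 97.5 CPM to 36.7 and 34.3 CPM (log2 difference -1.24, SE 0.12, adjusted p = 0.00081). MYOF (myoferlin, a membrane repair protein) fell by 1.08 on the log2 scale from 10.7 and 10.4 CPM to 5.59 and 4.46 CPM. TGFB2, a ligand of the TGF-beta receptors, fell by 0.84 from 15.8 and 12.7 CPM to 7.57 and 8.24 CPM. For AMOTL2, MYOF and TGFB2 the dates did not overlap.

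LATS2, the kinase that shuts YAP out of the nucleus and is itself a YAP target, went from 52.2 and 58.7 CPM to 33.8 and 34.7 CPM (log2 difference -0.69, SE 0.09, adjusted p = 0.0029). NUAK2, an AMPK-related kinase, fell by 0.73 from 9.17 and 12.8 CPM to 6.58 and 6.55 CPM. PTPN14, a phosphatase that holds YAP in the cytoplasm, fell by 0.60 and RBMS3, an RNA-binding protein gene, by 0.64. The smaller drops were in CRIM1, a transmembrane protein that binds bone morphogenetic proteins (-0.48), ASAP1, an Arf GTPase regulator (-0.46), and GADD45A, a stress-response gene (-0.36). FOXF2, a forkhead transcription factor, was the 1 member that rose, from 51.6 and 63.7 CPM to 68.8 and 78.0 CPM (log2 difference 0.35, adjusted p = 0.0197). The members that did not pass were IGFBP3 (0.32), NT5E (0.29), FJX1 (0.02), F3 (-0.05), CCDC80 (-0.09), ARHGEF17 (-0.22), DOCK5 (-0.24) and AXL (-0.66, at 0.68 to 1.22 CPM).

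**Figure D2:**
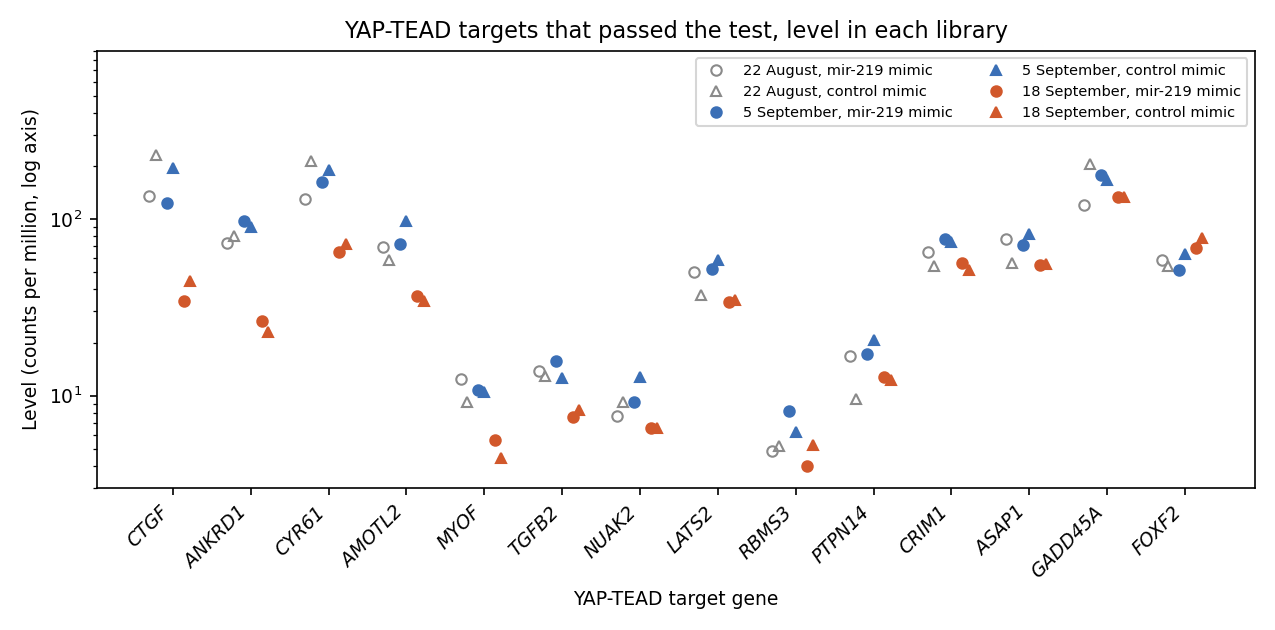
Level of the 14 YAP-TEAD targets that passed the test, in CPM on a log axis, with 1 point per library (circles, mir-219 mimics; triangles, control mimics; orange, 18 September; blue, 5 September; open grey, 22 August, from a normalization over all 6 libraries). For CTGF, ANKRD1 and CYR61 both orange points lie below all 4 others, and FOXF2 at the right is the 1 gene whose orange points lie above the blue ones.

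The genes of the Hippo pathway itself moved less. Of 24 genes, all tested, 8 fell (33.3%, against 10.9% of all genes), 2 rose (8.33%, against 8.43%) and 14 did not pass. The median log2 difference was -0.23 (-0.19 and -0.22 in the pairs). AJUBA, a LIM-domain protein that restrains LATS kinases, went from 92.7 and 92.9 CPM to 63.3 and 61.4 CPM (log2 difference -0.57, SE 0.09, adjusted p = 0.0033). The upstream kinases TAOK1 (-0.53) and TAOK2 (-0.30), the scaffold WWC2 (-0.53), the kinase LATS1 (-0.41), the YAP-binding scaffold AMOTL1 (-0.37) and the large cadherin FAT1 (-0.33) also fell. With a trend with gene length removed 1 member fell and 2 rose, the median was -0.08 and FAT1, a long gene, turned to 0.06.

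The TEAD family itself split. TEAD1 fell from 44.9 and 43.2 CPM to 35.2 and 30.4 CPM (log2 difference -0.43, adjusted p = 0.013). TEAD2 rose from 9.06 and 11.1 CPM to 14.3 and 16.0 CPM (0.60, adjusted p = 0.0103), and TEAD4 from 34.4 and 33.7 CPM to 41.7 and 47.8 CPM (0.39, adjusted p = 0.0199). TEAD3 had a difference of 0.01 (SE 0.10) and did not pass. The listed gene lengths were 9430 bases for TEAD1, 2440 for TEAD2, 1690 for TEAD4 and 2983 for TEAD3.

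The coactivators did not pass. YAP1 was at 70.5 and 62.3 CPM on 5 September, against 56.9 and 56.2 CPM on 18 September (log2 difference -0.23, SE 0.09, adjusted p = 0.100), and WWTR1 at 38.3 and 38.2 CPM and then 29.4 and 32.6 CPM (-0.31, SE 0.10, adjusted p = 0.0516). Both 18 September libraries lay below both 5 September libraries for each gene, as for 29.1% of all genes tested. The core kinases STK4 (-0.23) and STK3 (0.00), the LATS partners MOB1A (-0.10) and MOB1B (-0.29) and the STK adaptor SAV1 (-0.15) did not pass either. Nor did NF2 (merlin, -0.10), TAOK3 (-0.23), WWC1 (-0.14), DCHS1 (-0.02), AMOT (0.06) or VGLL4 (0.00), a competitor of YAP for TEAD.

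Extracellular matrix genes were the next group, and they include fibronectin, named in the study's title. FN1, which encodes fibronectin, was at 363 and 496 CPM on 5 September, against 223 and 238 CPM on 18 September. The log2 difference was -0.88 (SE 0.11, adjusted p = 0.0026; -0.70 and -1.06 in the pairs), and the dates did not overlap. On 22 August FN1 was at 527 and 335 CPM, on the side of 5 September. FN1 (ENSG00000115414) lies at chr2:216225163-216300895 (hg19), and no other gene of the table overlaps it. With all 6 libraries in the fit FN1 stood at -0.89 and did not pass (adjusted p = 0.233). Leaving the control library of 5 September out of that fit gave -0.50 (adjusted p = 0.390).

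Of 38 matrix genes 37 were tested. Among these 20 fell (54.1%, against 10.9% of all genes) and none rose (against 8.43%). Their median was -0.38 (-0.19 in the mir-219 pair and -0.57 in the control pair). In fits over 5 libraries it was -0.16 without the control library of 5 September and -0.65 without the mir-219 library of that date. With all 6 libraries the median was -0.37 and no member passed. COL5A1, a fibrillar collagen chain, fell from 26.5 and 29.6 CPM to 13.5 and 12.8 CPM (log2 difference -1.09, SE 0.12, adjusted p = 0.0016). THBS1 (thrombospondin 1, also a known YAP target) fell from 7.09 and 10.4 CPM to 3.03 and 4.27 CPM (-1.26, SE 0.17, adjusted p = 0.0029). The basement membrane collagens COL4A1 and COL4A2, whose genes share a promoter region, fell by 0.74 and 0.73, and the basement membrane proteins NID1 and LAMC1 by 0.52 each. TNC (tenascin C) fell by 0.62, and the metalloproteinases MMP14 and MMP2 by 0.79 and 0.63. ALDH1L2, also named in the title, had 72 and 40 counts on 5 September and 42 and 23 on 18 September, and did not pass (log2 difference -0.28, SE 0.31, adjusted p = 0.557).

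Matrix genes are long, and with the trend with gene length removed their median was -0.20 and 12 fell, while the YAP-TEAD targets kept a median of -0.42 and 12 fell. FN1 then stood at -0.59.

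Actin cytoskeleton genes and targets of SRF, the factor that couples actin dynamics to transcription, fell in part. Of 28 genes, all tested, 10 fell (35.7%, against 10.9% of all genes) and none rose (against 8.43%). Their median was -0.19 (-0.13 and -0.30 in the pairs). In fits over 5 libraries it was -0.09 without the control library of 5 September and -0.38 without the mir-219 library of that date. With all 6 libraries no member passed. MYH9, the heavy chain of non-muscle myosin, went from 434 and 603 CPM to 266 and 308 CPM (log2 difference -0.84, SE 0.10, adjusted p = 0.0026). In a fit over 5 libraries without the control library of 5 September MYH9 was at -0.53 (adjusted p = 0.349), and with all 6 at -0.84 (adjusted p = 0.230). The filamins FLNC and FLNA, which crosslink actin, fell by 0.79 and 0.55, CALD1 (caldesmon) by 0.64, and the focal adhesion genes VCL and TLN1 by 0.45 and 0.42. TAGLN, a smooth muscle actin-binding protein, was scarce and fell by 1.40, from 2.55 and 3.45 CPM to 1.80 and 0.53 CPM. The cytoplasmic actins themselves did not pass: ACTB was at 2790 and 3689 CPM and then 3277 and 4024 CPM (0.18), and ACTG1 had a difference of 0.32. Of the 8 lower genes of this list with a RefSeq promoter, 6 held GGAATG (VCL, FLNC, CALD1, MYH9, MYH10 and ACTN1), as did 10 of all 24 members with a promoter (41.7%). The letters stood in 2 of 13 promoters of lower matrix genes (15.4%), THBS1 among them, and in none of 9 of lower immediate early genes.

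Epithelial keratins and junction genes followed, with 8 of 20 tested genes lower (40%, against 10.9% of all genes) and 1 higher (5%, against 8.43%). Their median was -0.19. With a trend with gene length removed 4 fell, none rose and the median was -0.14. The keratins KRT17 (11.75 and 11.996 CPM to 5.44 and 4.75 CPM) and KRT80 (9.82 and 12.2 CPM to 5.02 and 3.30 CPM) had the largest drops, -1.22 and -1.41. The tight junction scaffold TJP1 fell by 0.53 and the desmosome gene DSP by 0.49. KRT18, a simple-epithelium keratin, rose by 0.38, although its libraries overlapped between the dates.

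Growth-factor response genes fell as well. Of 23 immediate early genes, which serum and growth factors induce within minutes, 11 fell (47.8%, against 10.9% of all genes). Another 3 rose (13%, against 8.43%), and the median was -0.36 (-0.26 and -0.47 in the pairs). In fits over 5 libraries the median ran from -0.45 without the mir-219 library of 18 September to -0.18 without the control library of that date. With all 6 libraries no member passed. EGR1, a zinc-finger factor induced through SRF, was at 231 and 251 CPM on 5 September, against 135 and 116 CPM on 18 September. Its log2 difference was -0.94 (SE 0.10, adjusted p = 0.0016; -0.77 and -1.12), the dates did not overlap, and 22 August was at 294 and 250 CPM. The AP-1 genes FOSL1 (-0.82), FOSL2 (-0.68), FOS (-0.66), FOSB (-0.63) and JUN (-0.59) fell together with the stress factor ATF3 (-0.60), while JUND rose by 0.35. The antiproliferative gene BTG2 rose, from 148 and 154 CPM to 200 and 194 CPM (0.38). MYC also rose and had the highest log2 difference of the list (0.41). With the length trend removed the median was -0.41 and 14 of the 23 fell. EGR1 (ENSG00000120738, chr5:137801179-137805004 in hg19) has SRF-binding CArG boxes close to its start. Its RefSeq promoter (GRCh38.p14 chr5:138465229-138465528, plus strand) holds 2, starting 105 and 83 bases before the start and shown in capitals. Such a box stands in 1.29% of all promoters and in 1 of the 9 promoters of lower immediate early genes.
EGR1: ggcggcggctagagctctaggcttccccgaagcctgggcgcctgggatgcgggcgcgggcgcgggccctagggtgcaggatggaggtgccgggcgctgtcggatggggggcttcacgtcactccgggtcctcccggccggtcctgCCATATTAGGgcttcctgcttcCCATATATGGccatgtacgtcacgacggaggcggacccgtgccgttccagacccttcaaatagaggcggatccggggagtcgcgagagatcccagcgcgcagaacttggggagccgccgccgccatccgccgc

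Genes that report on ERK signalling, the kinase branch downstream of growth factor receptors, fell in 7 of 16 cases (43.8%, against 10.9% of all genes). None rose (against 8.43%), and the median was -0.28. In fits over 5 libraries the median ran from -0.36 to -0.24, and with all 6 libraries no member passed. EPHA2, a receptor tyrosine kinase induced by ERK, went from 43.1 and 52.6 CPM to 26.3 and 23.8 CPM (log2 difference -0.93, SE 0.12, adjusted p = 0.0027). The feedback inhibitors SPRY4 (-0.91) and SPRED2 (-0.57), the phosphatase gene DUSP4 (-0.49) and the ETS factor ETV5 (-0.78) fell. HBEGF, an EGF receptor ligand on no list and chosen after its values were seen, fell by 0.92, from 36.6 and 41.4 CPM to 20.8 and 20.5 CPM.

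TGF-beta and BMP pathway genes were mixed, with 9 of 29 lower (31%, against 10.9% of all genes) and 2 higher (6.9%, against 8.43%). With the length trend removed 4 fell, 2 rose and the median was -0.04. ID2, an inhibitor of basic helix-loop-helix factors that BMP signals induce, rose from 79.1 and 71.5 CPM to 138 and 122 CPM (log2 difference 0.79, SE 0.09, adjusted p = 0.0017; 0.80 and 0.77 in the pairs). On 22 August ID2 was at 48.2 and 71.0 CPM, so the 18 September libraries were the highest of the 6. The feedback genes SKIL (-0.61), SMAD7 (-0.41) and PMEPA1 (-0.34), which TGF-beta induces, and the TGF-beta-induced matrix gene TGFBI (-0.94, at 1.55 to 3.60 CPM) fell. BAMBI, a decoy receptor, rose by 0.35.

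Of 32 mitotic genes 10 fell (31.2%, against 10.9% of all genes) and 1 rose, with a median of -0.18. Of 33 DNA replication genes 6 rose (18.2%, against 8.43%) and 3 fell (9.09%), with a median of 0.07, and the difference between the lists was not tested. The proliferation antigen MKI67 fell from 85.6 and 91.4 CPM to 52.7 and 51.7 CPM (log2 difference -0.76, SE 0.09, adjusted p = 0.0025), and topoisomerase TOP2A from 276 and 228 CPM to 156 and 149 CPM (-0.72). The spindle genes ASPM (-0.72), CENPF (-0.69) and KIF11 (-0.52) fell, and the mitotic kinase gene CDK1 rose by 0.41. On the replication side the clamp loader RFC2 rose by 0.47, cyclin E1 (CCNE1) by 0.46 and the sliding clamp PCNA by 0.42. The polymerases POLA1 and POLE and the initiation factor MCM10 fell by 0.39, 0.37 and 0.37. MKI67 is listed at 12678 bases and PCNA at 1359. With the length trend removed 11 of the mitotic genes fell and 1 rose, and of the replication genes 5 rose and 1 fell.

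Genes of the cytosolic ribosome and the respiratory chain rose in part. Of 83 tested ribosomal protein genes 38 rose (45.8%, against 8.43% of all genes) and 3 fell, with a median of 0.33. That median was 0.10 in the mir-219 pair and 0.51 in the control pair, so the control pair differed more, a difference that was not tested. RPS3A rose by 0.67, RPS6 by 0.61 and RPL7A by 0.60. RPL36A and RPL17, at 2.28 to 8.29 CPM, fell by 1.32 and 1.12; the table places 1 and 2 other genes over them. Ribosomal protein genes have many processed pseudogene copies, so reads may have been split among copies, and their values are uncertain to that extent.

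Nuclear genes of the respiratory chain rose in 22 of 74 tested cases (29.7%, against 8.43% of all genes) and fell in none (against 10.9%). Their median was 0.26 (0.05 in the mir-219 pair and 0.47 in the control pair). The ATP synthase gene ATP5C1 went from 129 and 130 CPM to 178 and 197 CPM (log2 difference 0.54, SE 0.09, adjusted p = 0.0041). SDHB of complex II rose by 0.50, UQCRFS1 of complex III by 0.50 and NDUFB10 of complex I by 0.53. Of the 13 mitochondrially encoded genes 1 rose (7.69%, against 8.43% of all genes), MT-ND4L (0.42), and none fell. With the length trend removed 23 ribosomal protein genes and 20 respiratory chain genes rose. Without the control library of 5 September, in a fit over the other 5 libraries, no member of either list rose, 3 ribosomal protein genes and 1 respiratory chain gene fell, and the medians were 0.05 and -0.04. With all 6 libraries no member of either list passed, and the medians were 0.33 and 0.26.

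**Figure D3:**
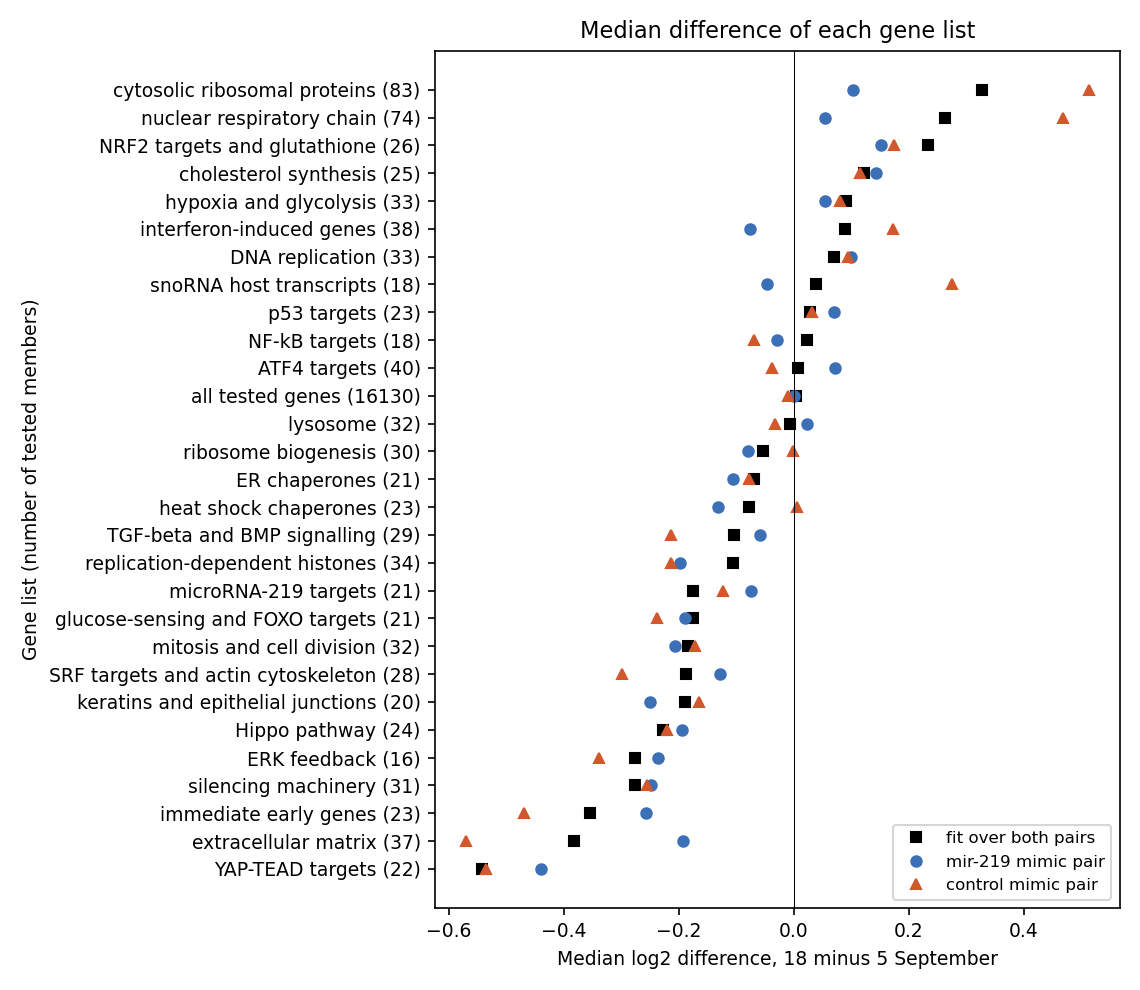
Median log2 difference between 18 and 5 September of each gene list with at least 15 tested members, 28 lists and all tested genes, from the fit over both pairs (black squares) and within the mir-219 pair (blue circles) and the control pair (orange triangles). YAP-TEAD targets are lowest at -0.54, ribosomal protein genes are highest at 0.33, and the 2 pairs stand apart most for the ribosomal and respiratory lists.

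The genes of the silencing machinery, whose complex was precipitated here, fell in 14 of 31 cases (45.2%, against 10.9% of all genes). They rose in 2 (6.45%, against 8.43%), and their median was -0.28 (-0.25 and -0.26 in the pairs). TNRC6A, the GW182 protein that links Ago2 to deadenylation, went from 183 and 173 CPM to 130 and 125 CPM (log2 difference -0.47, SE 0.09, adjusted p = 0.0053). The nuclease genes DROSHA and DICER1, which cut microRNA precursors, fell by 0.46 and 0.40, and the decapping genes DCP1A and DCP2 by 0.44 and 0.38. The Dicer partners PRKRA and TARBP2 rose by 0.34 and 0.31. AGO2 itself is among the 14. TNRC6A is listed at 8438 bases, PRKRA at 1851 and TARBP2 at 1867, and with the length trend removed 4 members fell and none rose.

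Of 9 tested structural and long non-coding RNAs 3 fell (33.3%, against 10.9% of all genes). All 9 had a log2 difference below 0, with a median of -0.61. The 3 include nuclear RNAs. NEAT1, the scaffold of paraspeckles, went from 203 and 171 CPM to 107 and 94.8 CPM (log2 difference -0.89, SE 0.09, adjusted p = 0.0011), and MALAT1 of nuclear speckles from 30.3 and 25.6 CPM to 16.0 and 13.6 CPM (-0.91, SE 0.11, adjusted p = 0.0026). With the length trend removed NEAT1 stood at -0.43 (adjusted p = 0.0016). Without the mir-219 library of 5 September, in a fit over the other 5 libraries, it was -0.66 (adjusted p = 0.070), and with all 6 libraries it did not pass (adjusted p = 0.230). TUG1 fell by 0.39. On 22 August NEAT1 was at 124 and 174 CPM, between the dates for one mimic and with 5 September for the other. Among transcripts annotated as lying within an intron of another gene on the same strand, 7 of 64 fell (10.9%, the same share as over all genes) and 1 rose, with a median of -0.34.

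Gene length ran through these differences. The log2 difference and the listed gene length had a Spearman correlation of -0.366 across genes (-0.267 in the mir-219 pair and -0.388 in the control pair). In the longest decile of genes, of 6664 bases or more, 688 fell and 12 rose, with a median of -0.30. In the second shortest decile, of 1154 to 1777 bases, 16 fell and 330 rose, with a median of 0.22. When a smooth trend of each library on gene length was removed, 1171 genes rose and 1007 fell, 1649 of the 3115 calls remained and 3080 kept their sign. CTGF, ANKRD1 and CYR61, at 2339, 1979 and 2290 bases, fall in deciles whose medians are above 0. The part of gene length in the other results was not tested beyond this correction.

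**Figure D4:**
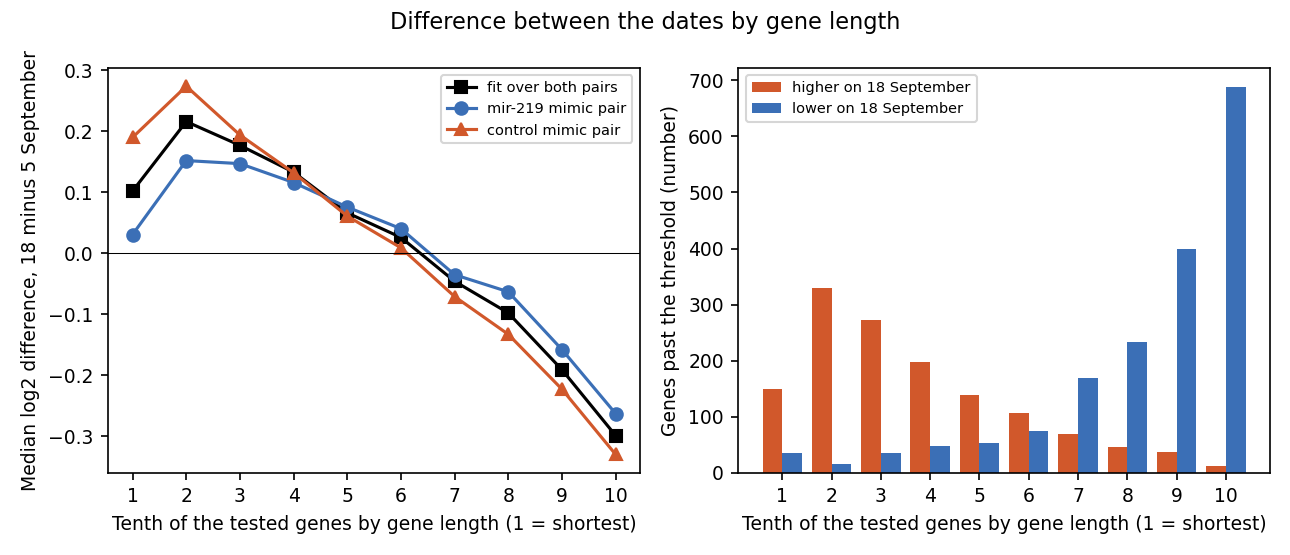
Tested genes in deciles by listed gene length, 1613 genes each. Left, the median log2 difference between 18 and 5 September in the fit (black) and in each pair (blue circles, mir-219; orange triangles, control). Right, the number of genes past the threshold that were higher (orange) or lower (blue) on 18 September. The median falls from 0.22 in the second decile to -0.30 in the longest.

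By size alone, most of the 15 largest drops past the threshold were in scarce transcripts, beside CTGF and ANKRD1. GLP2R, a glucagon-like peptide receptor, had 92 and 95 counts on 5 September and 17 and 20 on 18 September (log2 difference -1.81). NPPB, which encodes the natriuretic peptide BNP and responds to stretch in heart muscle, had 45 and 65 counts and then 5 and 16 (-1.87). Others among them were MYPN, MAP3K7CL, HIST1H4I, SLC47A2, INSM2, C6orf25, IGSF10, ENO1-IT1, MLK7-AS1 and DRP2, with log2 differences from -2.28 to -1.64 and at most 53 counts in any of the 4 libraries. MYPN, MAP3K7CL, HIST1H4I, INSM2, C6orf25, IGSF10, ENO1-IT1 and MLK7-AS1 passed the filter on low counts only through their 5 September counts. The place of these genes among the largest drops is therefore no support.

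The largest rises were in genes that HEK293 cells are not known for. Among the 15 largest were CLCA1, CEACAM7, MUC13, IGHG1, CEACAM5, PHGR1, KRT20, PIGR, TSPAN1, TFF3, ABP1, IGLC3 and SLC26A3, most of them genes of intestinal epithelium or of antibody-producing plasma cells. CLCA1, CEACAM7, MUC13, CEACAM5, IGHG1, ABP1, KRT20 and TFF3 passed the filter on low counts only through their 18 September counts. PIGR, PHGR1 and IGLC3 reached its minimum on 5 September in the mir-219 library only, so they too needed 18 September counts. The place of these genes among the largest rises is therefore no support. CLCA1, a goblet cell secretory gene, had 9 and 0 counts on 5 September and 42 and 36 on 18 September (log2 difference 3.63, SE 0.65). PIGR, the epithelial receptor that carries IgA across the gut lining, had 51 and 1 counts and then 112 and 130 (2.87, SE 0.61). On 22 August, in a normalization over all 6 libraries, CLCA1 was at 0 and 2.07 CPM and PIGR at 0.10 and 11.0 CPM. On 18 September they were at 1.99 and 1.75 CPM and at 5.30 and 6.30 CPM. For both genes the 22 August control library stood above both 18 September libraries. It also did so for CEACAM5, MUC13, IGHG1 and ABP1, but not for CEACAM7, KRT20, PHGR1 or IGLC3. Without the control library of 5 September, in a fit over the other 5 libraries of the series, CLCA1 stood at 1.83 (adjusted p = 0.205) and PIGR at 0.67 (adjusted p = 0.5002). Neither passed without either of the 18 September libraries, and both passed without the mir-219 library of 5 September.

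The 13 intestinal markers summed to 15.6 and 14.3 CPM on 5 September, against 35.3 and 42.1 CPM on 18 September. CDX2, an intestinal transcription factor found in all 4 libraries, made up 8.71 and 13.1 CPM and then 17.4 and 22.7 CPM of that. Only 7 of the 13 intestinal markers passed the filter on low counts, TFF3 and KRT20 only through their 18 September counts. PHGR1, PIGR and FABP1 reached its minimum on 5 September in the mir-219 library only, so they too needed 18 September counts. The number of intestinal markers that rose is therefore no support. CDX1 was at 0 in both libraries of 5 September. The 6 plasma cell markers summed to 9.07 and 0.058 CPM on 5 September, against 10.9 and 25.5 CPM on 18 September, with IGKC at 0 in all 4 libraries. IGHA1 and IGHA2 were at 0 in the control library of 5 September and did not pass (log2 differences 2.16 and 2.20). Both turned below 0 without that library (-0.56 and -0.52). On 22 August IGHA1 was at 0 CPM with mir-219 mimics and 16.8 CPM with control mimics, and IGHA2 at 0 and 6.12 CPM. The 6 erythroid markers reached 688 CPM in the 5 September control library, against at most 0.245 CPM in any other. The leukocyte markers summed to 0.936 and 1.05 CPM and then 1.23 and 1.43 CPM, with PTPRC at 0 throughout. The endothelial list summed to 1.22 and 1.48 CPM and then 1.13 and 0.939 CPM. The fibroblast list, of which COL1A1 made up most and fell by 0.45, summed to 19.0 and 23.7 CPM and then 18.1 and 16.6 CPM. The part of the intestinal and plasma cell transcripts in the other results was not tested.

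**Figure D5:**
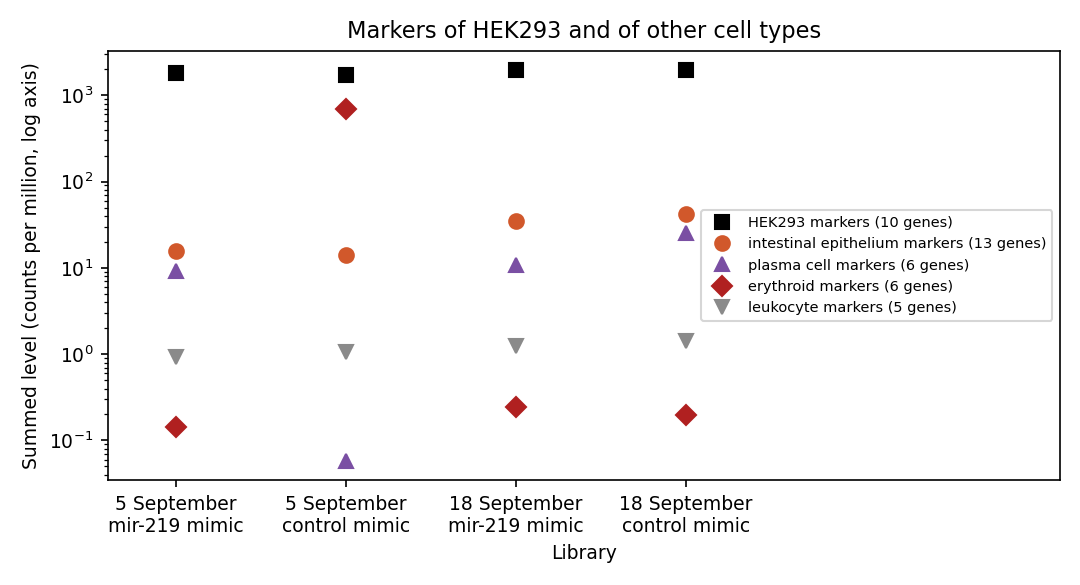
Summed level of marker genes in each of the 4 libraries, in CPM without further normalization, on a log axis. The HEK293 sum lies between 1717 and 1946, although single members rose or fell. Intestinal markers are 14.3 to 15.6 on 5 September and 35.3 to 42.1 on 18 September. Erythroid markers reach 688 in the control library of 5 September alone.

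Among the genes with the lowest p on the rising side 3 are described here, chosen after their values were seen. SEPP1, the selenium transport protein, went from 12.7 and 11.3 CPM to 22.4 and 24.2 CPM (log2 difference 0.96, SE 0.13, adjusted p = 0.0027). GPM6A, a neuronal membrane glycoprotein, went from 8.44 and 10.7 CPM to 16.5 and 20.8 CPM (0.96, SE 0.12, adjusted p = 0.0027). SSBP4, a single-stranded DNA-binding protein gene, went from 18.5 and 25.9 CPM to 40.1 and 42.5 CPM (0.91, SE 0.12, adjusted p = 0.0027). Both 18 September libraries lay above both of 5 September for each. On the falling side, COL12A1, a fibril-associated collagen outside the matrix list, went from 93.0 and 112 CPM to 53.8 and 62.9 CPM (-0.81, SE 0.09, adjusted p = 0.0016).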

How the data were processed

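RNA recovered with Flag-Ago2 from HEK293 cells was sequenced in 6 libraries, 4 of which were compared. The deposited values are whole-number counts of reads per gene. Per the submitters' processing notes, STAR 2.5, HTSeq 0.6.1, DESeq2 and the build hg19 were used; the strand setting is not given in the sources used here. No column of the table was left unmapped (0). Of the IDs, 45038 of 48162 matched a reference name.

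From the deposited counts, genes were filtered with filterByExpr (minimum count 10, minimum total 15), scaled by TMM and tested with edgeR 4.0.16 in R 4.3.3 (quasi-likelihood F test, date and mimic as terms, Benjamini-Hochberg threshold 0.05). The shared mimic label pairs the libraries. CPM per gene are TMM-scaled, those of 22 August come from a scaling over 6 libraries, and summed marker CPM are not scaled. Log2 differences within a pair use a prior count of 2. The SE of a gene was derived from its test, as the size of the log2 difference divided by the square root of the F statistic. The fit was tested on simulated data. Alternatives used limma 3.58.1 and DESeq2 1.42.0; thinning and the removal of a gene-length trend (loess, span 0.5) were chosen after seeing the data.

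Genes were named by rule: up to 15 per direction by size, up to 4 members per list by p, every YAP-TEAD and Hippo member, and AGO2, ALDH1L2 and FN1. The other list members named in the text, and the genes on no list, were chosen after their values were seen. The members and the 38 lists were chosen with earlier results of these data known. Some results of the rule are not reported here.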

Additional observations from a re-analysis of the deposited data

How the results depend on the processing

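Without the replicate block (the mimic as a term) 230 genes were higher and 623 lower on 18 September. The counts, higher then lower, were 1858 and 1941 with DESeq2's size factors in edgeR, 1868 and 1318 with upper quartile normalization (58.6% of calls higher, against 43.7%), 1589 and 2138 with no filter, 388 and 654 with DESeq2, 1275 and 1648 with limma-voom, 1369 and 1756 without AGO2 and mitochondrial genes, 1363 and 1722 after thinning, and 1171 and 1007 with the gene-length trend removed (53.8% higher). With all 6 libraries they were 0 and 2, and 0 and 3 with the length trend also removed. Leaving out 1 library, in fits over the other 5, gave 258 and 264 without the 5 September mir-219 library, 22 and 37 without the 5 September control, 0 and 4 without the 18 September mir-219 library, and 0 and 0 without the 18 September control, where 632 genes had an unadjusted p under 0.05 by edgeR. Depth limits scarce genes. The cause of these changes was not tested.

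Of the 3115 called genes 3080 kept their sign with the length trend removed. Among the genes named in the text FAT1 was the 1 called gene whose sign changed. With the length trend removed, alone and then with 6 libraries, the log2 differences that changed sign were FAT1 0.063 and 0.057, ARHGEF17 0.030 and 0.022, DCHS1 0.31 and 0.31, DOCK5 0.073 and 0.066, FJX1 -0.0604 and -0.0601, NF2 0.074 and 0.071, STK3 0.13 and 0.13, TEAD3 -0.039 and -0.042, and WWC1 0.078 and 0.071. With upper quartile normalization DCHS1 was 0.027, F3 0.0041 and STK3 0.048. With DESeq2's size factors STK3 was 0.0066, with DESeq2 0.0067 and with 6 libraries 0.012. With no filter FJX1 was -0.00066, TEAD3 -0.0050 and VGLL4 -0.017, and after thinning TEAD3 was -0.0076 and VGLL4 -0.0026. Leaving out 1 library gave ranges across 0 for AMOT (-0.077 to 0.22), ARHGEF17 (-0.53 to 0.10), CCDC80 (-0.27 to 0.097), DCHS1 (-0.37 to 0.29), DOCK5 (-0.47 to 0.0089), F3 (-0.16 to 0.093), FJX1 (-0.096 to 0.14), IGHA1 (-0.56 to 12.32), IGHA2 (-0.52 to 11.50), NF2 (-0.26 to 0.076), SAV1 (-0.32 to 0.049), STK3 (-0.14 to 0.16), TEAD3 (-0.13 to 0.17), VGLL4 (-0.11 to 0.14) and WWC1 (-0.40 to 0.14).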

Other observations

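Over all tested genes 8.43% were higher and 10.9% lower on 18 September, and no list below was tested against that share. Of 21 chaperones of the endoplasmic reticulum 6 fell (28.6%) and 1 rose (median log2 difference -0.07). HYOU1 fell from 113 and 145 CPM (mir-219, then control) to 80.3 and 88.6 CPM (-0.60), HSP90B1 by 0.58 and HSPA5 (BiP), the main chaperone of this compartment, by 0.55. Of 23 heat shock chaperones 4 fell (17.4%) and 1 rose, among them the inducible HSPA1B (2875 and 3016 CPM to 2024 and 2046 CPM, -0.53) and HSPA1A (-0.45); these are near-identical copies, so their values are uncertain. Of 38 interferon-induced genes 4 fell (10.5%, near the share of all genes) and 1 rose, with a median of 0.09. IFIT2, which binds RNA, fell from 28.2 and 21.0 CPM to 11.1 and 11.4 CPM (-1.11) and SAMD9 by 0.76. Of 21 FOXO and glucose-sensing genes 6 fell (28.6%) and none rose, with ARRDC3 at -0.58 and FOXO3 at -0.47.

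Of 33 hypoxia and glycolysis genes 7 rose (21.2%) and 2 fell, with the mitophagy receptor BNIP3 at 0.55 and GAPDH at 0.45. Of 25 cholesterol synthesis genes 4 rose (16%) and 1 fell. INSIG1, which holds back sterol synthesis, rose from 93.9 and 85.7 CPM to 144 and 126 CPM (0.59). Of 26 NRF2 and glutathione genes 4 rose (15.4%) and 2 fell, and the ferritin chain FTH1 had a difference of 0.63. Of 23 p53 targets 4 rose, CCNG1 among them (0.45), and 4 fell (17.4% each). Of 18 NF-kB targets 1 passed (5.56%), BCL3 (0.78). Of 40 ATF4 targets 2 rose (5%) and 4 fell (10%), and of 32 lysosomal genes 4 rose (12.5%) and 2 fell (6.25%). Of 30 ribosome biogenesis genes 6 fell (20%), UTP20 among them (-0.52), and 2 rose (6.67%), FBL among them (0.54). Of 34 replication-dependent histone genes 4 fell (11.8%) and 2 rose (5.88%). Of 21 microRNA-219 targets 3 fell (14.3%), SMC4 (-0.63) and ETV5 (-0.78) among them, and 2 rose (9.52%). The histone and microRNA-219 shares were near those of all genes.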
